A study of Mus musculus and Canis lupus familiaris with 12 samples.

Results

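The dual-specificity phosphatase (DUSP) and Sprouty genes are the negative feedback arm of mitogen-activated protein (MAP) kinase signalling. They were examined here in 2 osteosarcoma cell lines, DLM8 of mouse and Gracie of dog, after 6 h with 50 nM omacetaxine (OMX). The set was fixed by name as 10 genes (Dusp1, Dusp2, Dusp4, Dusp5, Dusp6, Dusp7, Dusp8, Dusp10, Spry2 and Spry4) and held every table row whose gene name matched regardless of case. The DLM8 table held all 10 among 78317 rows, and the Gracie table held 9 among 30424, with no row named DUSP7. Omacetaxine is a plant alkaloid that inhibits protein synthesis at the ribosome. The 4 groups, of 3 poly(A)-selected RNA libraries each, were wild-type DLM8 and wild-type Gracie cells, untreated or with OMX. The protocol names DMSO for the controls, which the sample labels call untreated. The labels do not say that replicates came from separate cultures, so p-values here reflect variation among the libraries only, and that variation may be technical.

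MAP kinases are switched on by paired phosphorylation of a threonine and a tyrosine, and DUSP proteins of this family remove both phosphates. Each prefers some kinases over others. DUSP5, DUSP6 and DUSP7 act on ERK, DUSP8 and DUSP10 act mainly on JNK and p38, and DUSP1, DUSP2 and DUSP4 act on several of them. Sprouty proteins act further upstream, between receptor tyrosine kinases and the kinase cascade. Many of these genes are themselves transcribed in response to the pathway that they restrain. Their short-lived mRNAs and proteins have made them reporters of recent MAP kinase activity. Neither kinase activity nor protein was measured here, so a higher row is not read as either.

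Depth was 9099313 to 11392715 counts per DLM8 library and 2385102 to 3381831 per Gracie library, so low rows are measured less well in Gracie. Levels are CPM, counts relative to the library total after TMM scaling (trimmed mean of M values). A gene was tested if at least 3 libraries reached 1.04 CPM in DLM8 or 3.79 CPM in Gracie, and it was called where edgeR's quasi-likelihood test gave a Benjamini-Hochberg adjusted p under 0.05 across the tested genes of that line. Fewer cells and less RNA per cell cannot be told apart in such bulk libraries. Rows without a gene symbol took 32.6% to 33.1% of the counts in untreated DLM8 and 29.2% to 30.1% with OMX, and 24.8% to 25.4% and 31.5% to 36.4% in Gracie. A gene's row may not hold its own mRNA alone. The row of mt-Nd6, the light-strand mitochondrial protein gene, exceeded the median row of the other 12 mitochondrial protein genes 49.9-fold to 94.1-fold across the 6 DLM8 libraries, and the strand setting of the counting is not given in the sources used here. Levels below are therefore levels of rows, not of mRNAs. The part of strand in the results was not tested, and the same check was not made for the dog table. Of 10 osteoblast-lineage markers, all had counts in untreated DLM8, with Ibsp nearly at 0, while of the 8 with a row in Gracie ALPL, SPP1 and IBSP were at 0 untreated. Their summed level was 2082 to 2899 CPM in untreated DLM8 and 869 to 1328 CPM with OMX, and 130 to 225 and 84.1 to 111 CPM in Gracie. The markers of Gracie did not move together: SPARC fell from 109 ± 22.9 to 24.8 ± 14.9 CPM (edgeR adjusted p = 0.00109), SP7 rose from 5.95 ± 0.430 to 30.5 ± 1.32 CPM (edgeR adjusted p = 0.000428), and RUNX2, at 17.6 ± 2.91 and 21.5 ± 6.29 CPM, was not called. The summed level of 5 markers of blood, epithelium and endothelium was 0 to 0.0928 CPM in untreated DLM8 and 1.38 to 5.50 CPM with OMX, and 0 to 2.32 and 2.42 to 8.47 CPM in Gracie. Cdh5, of endothelium, made up most of the DLM8 sum, at 0 untreated and 3.29 ± 1.85 CPM (SD, n = 3) with OMX. Krt18 and Epcam were at 0 in all 12 libraries, and the part of other cells in the results was not tested.

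Promoter sequences of 8 mouse members were held in the RefSeq table of build GRCm38.p6 (Dusp4 and Spry4 were not analysed here). The 250 bases before the transcription start are shown for Dusp1 and Dusp8, the members whose rows were higher in both lines, for Dusp5, higher in the dog line, and for Dusp7, lower in the mouse line. All are mouse sequences. The mouse Dusp5 row was not called, and no dog promoter was examined. Capitals mark the core TGACGT of the cyclic AMP response element (CRE, TGACGTCA, bound by ATF and CREB factors) on either strand, the full element where it is present, and CArG boxes, bound by serum response factor. The CRE is palindromic, so each full CRE holds overlapping cores on both strands.
Dusp1, chr17:26508473-26508722, minus strand: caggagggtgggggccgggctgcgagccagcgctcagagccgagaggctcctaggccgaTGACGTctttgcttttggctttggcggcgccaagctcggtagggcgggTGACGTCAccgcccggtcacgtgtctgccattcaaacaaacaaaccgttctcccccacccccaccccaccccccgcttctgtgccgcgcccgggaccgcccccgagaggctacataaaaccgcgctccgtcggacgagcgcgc
Dusp8, chr7:142095285-142095534, minus strand: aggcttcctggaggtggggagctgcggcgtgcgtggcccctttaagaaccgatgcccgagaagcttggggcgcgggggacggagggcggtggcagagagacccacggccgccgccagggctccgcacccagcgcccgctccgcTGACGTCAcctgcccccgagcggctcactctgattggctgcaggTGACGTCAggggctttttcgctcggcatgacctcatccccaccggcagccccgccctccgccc
Dusp5, chr19:53528895-53529144, plus strand: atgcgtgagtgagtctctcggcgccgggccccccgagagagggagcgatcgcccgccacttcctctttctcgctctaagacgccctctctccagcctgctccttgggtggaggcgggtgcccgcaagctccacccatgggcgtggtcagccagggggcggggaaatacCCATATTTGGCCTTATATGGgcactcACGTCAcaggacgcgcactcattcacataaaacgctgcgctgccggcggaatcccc
Dusp7, chr9:106368382-106368631, plus strand: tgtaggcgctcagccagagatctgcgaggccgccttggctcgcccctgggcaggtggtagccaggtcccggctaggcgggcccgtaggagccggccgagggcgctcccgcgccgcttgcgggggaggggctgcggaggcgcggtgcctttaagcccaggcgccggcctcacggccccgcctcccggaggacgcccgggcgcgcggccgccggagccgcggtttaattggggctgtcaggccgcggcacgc

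The Dusp1 window held a full CRE 143 to 136 bases before the start and a separate core at 191 to 186. The Dusp8 window held 2 full CREs, at 107 to 100 and at 63 to 56 bases. Among all 32851 promoter windows of the table, 1.55% held a full CRE, 0.0304% held 2 or more and 6.47% held the core. Dusp5 had adjoining CArG boxes at 82 to 73 and 72 to 63 bases and a CRE core at 56 to 51, where 1.47% of all windows held a CArG box. The windows of Dusp2, Dusp6, Dusp7, Dusp10 and Spry2 held none of these letters, and AP-1 sites (TGANTCA, in 6.75% of all windows) and NF-kB sites (in 7.25%) were found in none of the 8. A match is a description of the letters and not evidence of binding, and a window without a match says nothing about the factor.

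In DLM8, 5 of the 8 tested members were higher with OMX (Dusp1, Dusp6, Dusp8, Dusp10 and Spry4), 1 was lower (Dusp7) and 2 were not called (Dusp4 and Dusp5). Over all 17109 genes tested, 19.4% were called higher and 15.9% lower. Dusp6 and Spry4 had 0 untreated libraries at the filter's level and Dusp10 had 2, so these 3 were tested only because their OMX libraries reached it, and the count of higher members is partly set by the filter. Of the other 5 tested members 2 were higher and 1 lower, a count made after seeing the data. Dusp4 is among these 5 with 1 untreated and 2 OMX libraries at that level, so it also needed OMX libraries to be tested. Dusp2 and Spry2 did not pass. In Gracie, 4 of the 7 tested members were higher (DUSP1, DUSP5, DUSP8 and SPRY2), 1 was lower (DUSP4) and 2 were not called (DUSP6 and SPRY4), where 12.5% of 10423 genes were called higher and 8.06% lower. DUSP2 and DUSP10 did not pass there. In DLM8 the median log2 fold change was 1.53 over the 8 tested members, 0.10 without Dusp6, Dusp10 and Spry4, and 0.02 over all genes. In Gracie, where no member depended on OMX libraries to pass, it was 1.80, beside -0.01.

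**Figure D1:**
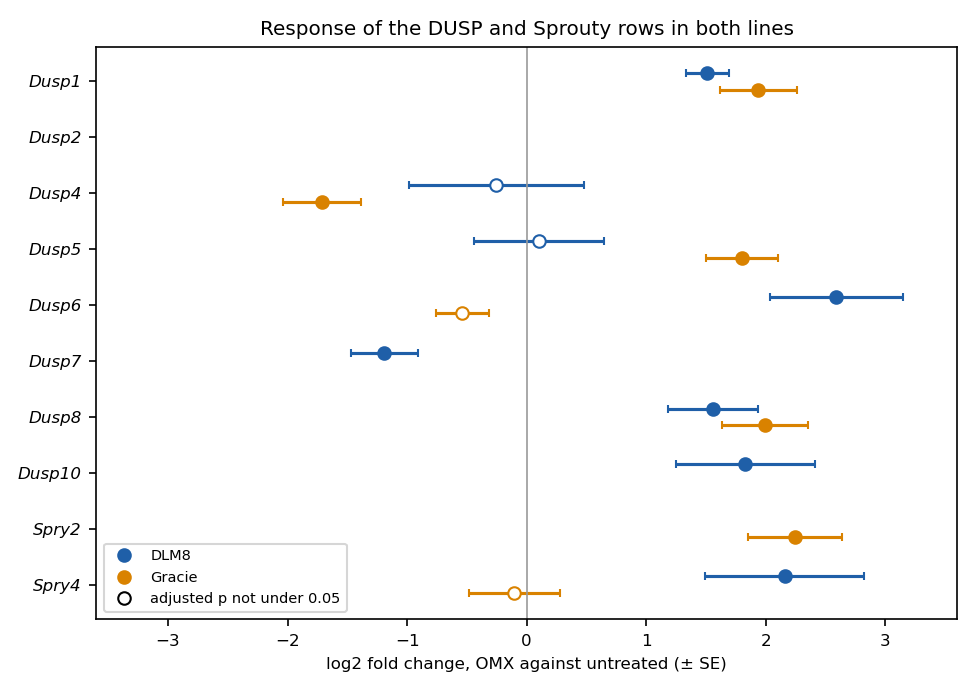
Log2 fold change of OMX against untreated for each tested member (points) with its standard error (bars), DLM8 in blue and Gracie in orange; open points were not called. Dusp1 and Dusp8 lie to the right in both lines, while Dusp6 is at 2.59 in DLM8 and -0.54 in Gracie.

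Among the nuclear phosphatases, Dusp1 encodes an immediate early phosphatase of p38, JNK and ERK, and its row was higher in both lines. In DLM8 it stood at 11.5, 12.7 and 12.5 CPM untreated and at 38.4, 33.1 and 33.3 CPM with OMX. Both groups were tight and far apart, and the row rose 2.85-fold (log2 fold change 1.51, SE 0.18, edgeR adjusted p = 6.33e-05). In Gracie the DUSP1 row stood at 42.2, 18.7 and 27.9 CPM untreated and at 87.4, 94.1 and 159 CPM with OMX. Its OMX libraries all lay above the untreated ones, with replicate 3 the highest, and it rose 3.83-fold (log2 fold change 1.94, SE 0.32, edgeR adjusted p = 0.000882). On the opposite strand mouse Dusp1 overlaps Ergic1, sharing 11 exonic bases, and the Ergic1 row held 2.21 times its counts and went the other way (log2 fold change -0.78, SE 0.20, edgeR adjusted p = 0.00888).

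Dusp2, a nuclear phosphatase best known from immune cells, was close to the limit of detection. Its DLM8 row had 4, 0 and 4 counts untreated and 20, 6 and 12 with OMX. Those groups did not overlap, but the row was too low for the test, and the unfiltered estimate was 2.11 (log2, SE 1.06, edgeR adjusted p = 0.169). The Gracie row had 0 counts in all 6 libraries, which allows up to 0.388 CPM in the untreated group and 0.341 CPM in the OMX group (3 counts over the group, counting error only).

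Dusp4, the nuclear relative of Dusp1, differed from it in direction in the dog line. The DUSP4 row of Gracie stood at 32.5, 63.8 and 66.2 CPM untreated and at 11.9, 19.1 and 18.2 CPM with OMX. All OMX libraries lay below all untreated ones, and the row fell (log2 fold change -1.71, SE 0.33, edgeR adjusted p = 0.00249). In DLM8 the Dusp4 row stood at 0.557, 0.877 and 3.02 CPM untreated and at 0.691, 1.13 and 1.87 CPM with OMX, overlapping groups of 6 to 26 counts per library. Its log2 fold change of -0.25 (SE 0.73, edgeR adjusted p = 0.816) leaves a change of either direction within its error.

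Dusp5 encodes a nuclear phosphatase specific for ERK. The DUSP5 row of Gracie stood at 34.5, 20.6 and 30.2 CPM untreated and at 67.7, 89.3 and 139 CPM with OMX. It rose 3.48-fold without overlap (log2 fold change 1.80, SE 0.30, edgeR adjusted p = 0.000962), and OMX replicate 3 was the highest library, as it was for DUSP1. In DLM8 the row stood at 5.01, 1.97 and 2.79 CPM untreated and at 5.73, 1.32 and 3.53 CPM with OMX, so that replicate 1 was the highest of each group and the groups overlapped fully (log2 fold change 0.10, SE 0.54, edgeR adjusted p = 0.902). Mouse Dusp5 shares 547 exonic bases with an antisense gene, AC137853.2, whose row held 4.30 times the counts of the Dusp5 row. The antisense row had 179, 81 and 73 counts untreated and 250, 161 and 124 with OMX, and was not called (log2 fold change 0.63, SE 0.32, edgeR adjusted p = 0.147).

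Of the cytoplasmic ERK phosphatase genes in DLM8, Dusp6 rose and Dusp7 fell. Dusp6, a classical transcriptional readout of ERK activity that feeds back on ERK itself, was scarcely counted in untreated DLM8, at 0.557, 0.438 and 0.697 CPM (4 to 6 counts), and stood at 2.57, 3.12 and 4.67 CPM with OMX (26 to 45 counts). All OMX libraries were higher, and the row rose 6.01-fold (log2 fold change 2.59, SE 0.56, edgeR adjusted p = 0.00341). In Gracie the DUSP6 row stood at 132, 125 and 92.1 CPM untreated and at 66.9, 84.7 and 87.6 CPM with OMX. Its OMX libraries were all below the untreated ones, by little in the nearest pair, and the log2 fold change of -0.54 (SE 0.22) was not called (edgeR adjusted p = 0.1). No annotated gene overlaps mouse Dusp6 on the opposite strand. The nearest, the lincRNA Gm34921, lies 196 bases away, and its row held 1.5 times the counts of the Dusp6 row. The Gm34921 row also rose, by 1.53 (SE 0.51, edgeR adjusted p = 0.034).

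Dusp7 encodes the other cytoplasmic ERK phosphatase measured here, and its row had the reverse direction. It stood at 11.7, 16.4 and 15.1 CPM in untreated DLM8 and at 8.10, 6.23 and 4.57 CPM with OMX. The groups did not overlap, and the row fell (log2 fold change -1.19, SE 0.28, edgeR adjusted p = 0.0058). No annotated gene overlaps it on the opposite strand, and no dog row carries its name.

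**Figure D2:**
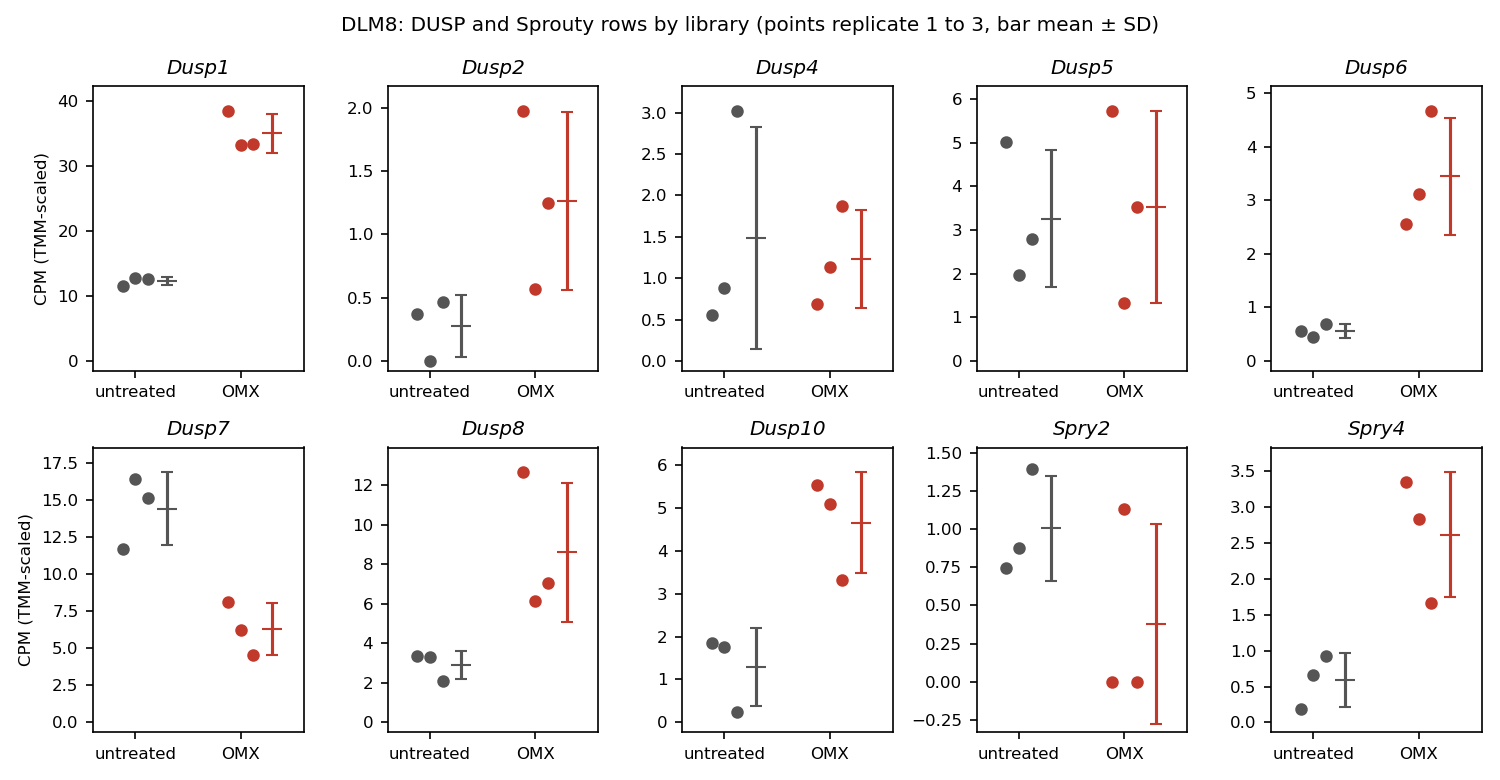
CPM (vertical axis, its own scale in each panel, from 0 or below where an error bar reaches there) of the 10 rows in the 6 DLM8 libraries; points are libraries and the bars give mean ± SD (n = 3). Dusp1, Dusp2, Dusp6, Dusp8, Dusp10 and Spry4 have all OMX libraries above the untreated ones, and Dusp7 all below.

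Among the JNK and p38 phosphatase genes, Dusp8 rose in both lines. Its DLM8 row stood at 3.34, 3.29 and 2.09 CPM untreated and at 12.6, 6.14 and 7.06 CPM with OMX. All OMX libraries were higher, replicate 1 by the most, and the row rose 2.94-fold (log2 fold change 1.56, SE 0.38, edgeR adjusted p = 0.00698). In Gracie DUSP8 stood at 9.29, 21.02 and 7.74 CPM untreated and at 50.1, 46.0 and 56.0 CPM with OMX, a 3.99-fold rise (log2 fold change 2.00, SE 0.36, edgeR adjusted p = 0.00163). Here the OMX libraries were close together and untreated replicate 2 was the highest of its group. A divergent lncRNA, Gm32786, overlaps the mouse gene by 66 exonic bases and held 0.0899 times its counts.

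Dusp10, which encodes a phosphatase of JNK and p38 in nucleus and cytoplasm, stood at 1.86, 1.75 and 0.232 CPM in untreated DLM8 (2 to 20 counts) and at 5.53, 5.10 and 3.32 CPM with OMX (32 to 56 counts). The OMX libraries were all higher and the row rose 3.56-fold (log2 fold change 1.83, SE 0.58, edgeR adjusted p = 0.0283), but leaving out 1 library could end the call: adjusted p was 0.0574 without untreated replicate 3, 0.0604 without OMX replicate 1 and 0.0914 without OMX replicate 2. The gene 1700056E22Rik overlaps it by 1272 bases on the opposite strand, with 0 exonic bases shared. Its row held 0.989 times the counts of Dusp10 and also rose (log2 fold change 3.05, SE 0.70, edgeR adjusted p = 0.00498), so the gene that these reads belong to is uncertain. In Gracie the DUSP10 row had 0 counts in every untreated library and 4, 0 and 12 with OMX. With a floor of 3 counts over the untreated group this is 4.68-fold over the groups. Most of the OMX counts came from replicate 3, so that value is no firm lower bound. That row was too low for the test, and without the filter its adjusted p was 0.128.

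Of the Sprouty genes, SPRY2 rose in Gracie and Spry4 in DLM8. SPRY2, an inhibitor of receptor tyrosine kinase signalling to ERK, stood at 3.87, 7.79 and 7.74 CPM in untreated Gracie and at 23.8, 35.4 and 32.9 CPM with OMX. All OMX libraries lay far above, and the row rose 4.73-fold (log2 fold change 2.24, SE 0.39, edgeR adjusted p = 0.00129). The Spry2 row of DLM8 had 8, 8 and 12 counts untreated and 0, 12 and 0 with OMX. It was too low for the test, its groups overlapped, and the unfiltered estimate was -1.39 (log2, SE 1.10, edgeR adjusted p = 0.407).

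Spry4, which restrains growth factor signalling through RAS, stood at 0.186, 0.658 and 0.930 CPM in untreated DLM8 (2 to 8 counts) and at 3.36, 2.83 and 1.66 CPM with OMX (16 to 34 counts). The groups did not overlap and the row rose 4.46-fold (log2 fold change 2.16, SE 0.67, edgeR adjusted p = 0.0244). Leaving out untreated replicate 1 or 2 gave an adjusted p of 0.0779 or 0.0652, and leaving out OMX replicate 1 or 2 gave 0.0738 or 0.0863, each ending the call. With halved counts the row was under the filter. In Gracie SPRY4 stood at 39.9, 21.8 and 13.9 CPM untreated and at 21.3, 28.7 and 20.2 CPM with OMX. Untreated replicate 1 was the highest library of all, the groups overlapped and the row was not called (log2 fold change -0.10, SE 0.38, edgeR adjusted p = 0.883).

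**Figure D3:**
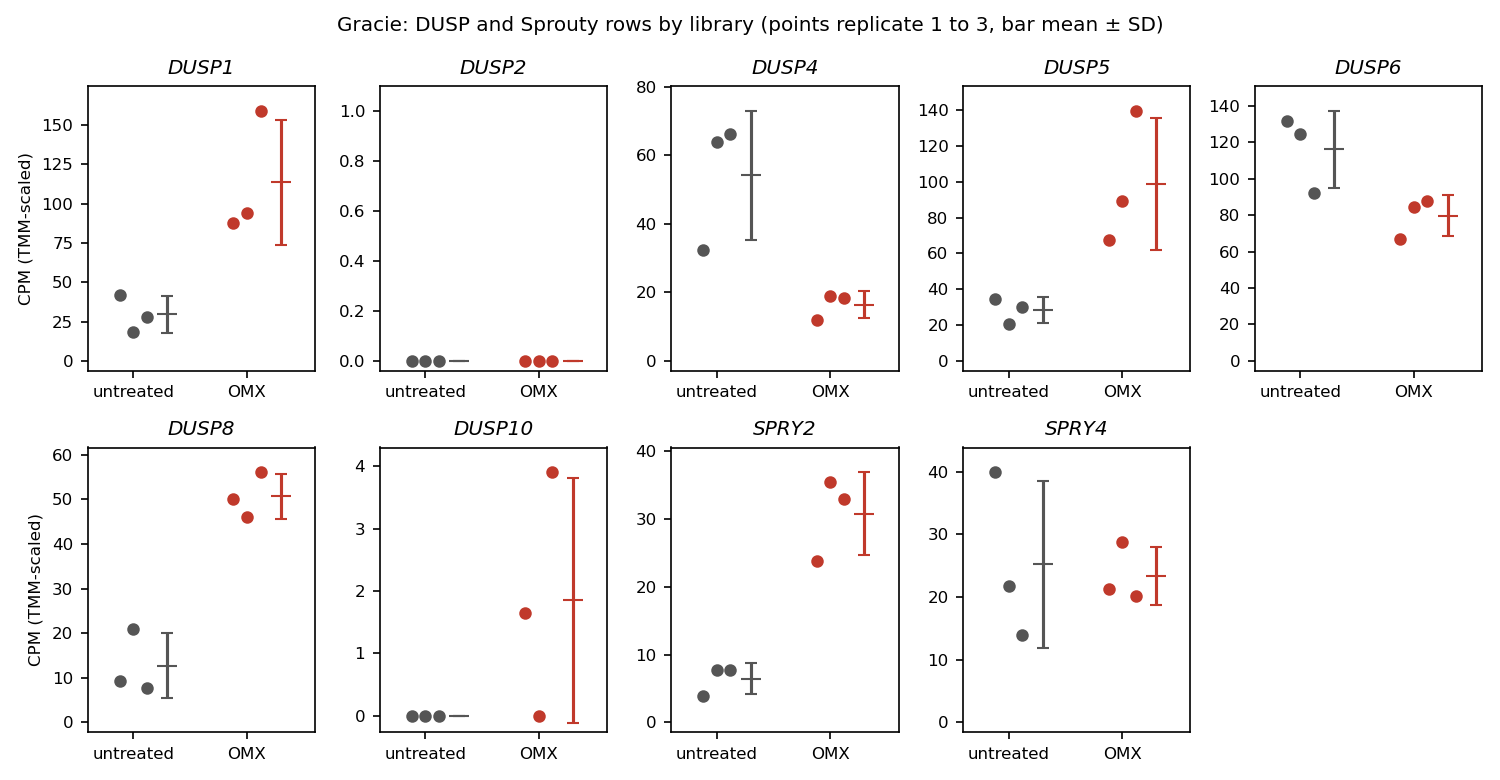
CPM (vertical axis, its own scale in each panel, from 0 or below where an error bar reaches there) of the 9 rows in the 6 Gracie libraries; points are libraries and the bars give mean ± SD (n = 3). DUSP1, DUSP5, DUSP8 and SPRY2 have all OMX libraries above the untreated ones, DUSP4 and DUSP6 all below, and DUSP2 is at 0.

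Levels per kilobase of annotated exon allow for gene length but not for reads of an opposite-strand gene, so the order below is one of rows, not of mRNAs. On this scale Dusp7 (4.29 ± 0.729 CPM per kb, SD, n = 3) and Dusp1 (3.70 ± 0.197) were the highest members in untreated DLM8. Their libraries overlapped, and those of all other members lay below them. Dusp5 followed in mean at 1.32 ± 0.636. Dusp8 (0.597 ± 0.145), Dusp4 (0.542 ± 0.489), Spry2 (0.481 ± 0.165) and Dusp10 (0.421 ± 0.299) overlapped, as did Dusp6 (0.180 ± 0.0414), Dusp2 (0.139 ± 0.123) and Spry4 (0.124 ± 0.0792), the lowest in mean. These sets were not apart. The lowest libraries of Dusp10 (0.0764) and Dusp4 (0.203) lay under the highest of Dusp6 (0.223), and the highest of Dusp4 (1.10) above the lowest of Dusp5 (0.798). With OMX Dusp1 reached 10.6 ± 0.905 CPM per kb and was apart from all others. Dusp7 (1.88 ± 0.526), Dusp8 (1.77 ± 0.723), Dusp10 (1.53 ± 0.385), Dusp5 (1.43 ± 0.891) and Dusp6 (1.10 ± 0.349) overlapped there, above Spry4 (0.550 ± 0.183), Dusp4 (0.449 ± 0.217) and Spry2 (0.181 ± 0.313) in mean, with Dusp2 at 0.630 ± 0.352. Dog exon lengths were not used here, so levels of Gracie rows are not ordered and no level is compared between the lines.

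Whether the libraries of the 2 groups overlapped was counted as well. In DLM8, 5 of the 8 tested members had all OMX libraries above all untreated ones, as did 25.6% of all tested genes. Without Dusp6, Dusp10 and Spry4 these were 2 of 5. Another 1 of the 8 had all OMX libraries below (23.4% of all tested genes). In Gracie these were 4 of 7 above (21.5%) and 2 of 7 below (18.2%), DUSP6 being separated but not called.

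Whether a member responded differently in the 2 lines was tested as the interaction of line and treatment over 7566 genes measured in both, of which 12.1% were called. The 6 members tested in both lines share no control libraries between the lines. Of these, Dusp6 and Spry4 had 0 untreated DLM8 libraries at the filter's level and entered only through their OMX libraries there. Dusp6 differed the most: its log2 fold change was 3.11 higher in DLM8 than in Gracie (SE 0.43, edgeR adjusted p = 0.00012). Spry4 was 2.26 higher in DLM8 (SE 0.68, edgeR adjusted p = 0.0335). That call ended without any of 7 single libraries (DLM8 untreated replicate 1 or 2, DLM8 OMX replicate 1 or 2, Gracie untreated replicate 1, Gracie OMX replicate 1 or 3), with adjusted p from 0.0628 to 0.106. Dusp5 was 1.71 lower in DLM8 (SE 0.58, edgeR adjusted p = 0.0605) and Dusp4 1.48 higher (SE 0.70, adjusted p = 0.183), neither called. With the replicate number as a block both were (adjusted p = 0.0128 and 0.0445), although the numbers were not shown to pair the libraries. Dusp5 was also called without DLM8 untreated replicate 2 (adjusted p = 0.0465) or DLM8 OMX replicate 1 (0.0154), and Dusp4 without DLM8 untreated replicate 3 (0.024).

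Dusp1 and Dusp8 were called higher in both lines, and their responses were not shown to differ. The DLM8 response was 0.43 lower for Dusp1, with a 95% interval of the difference from -1.19 to 0.33 (edgeR adjusted p = 0.527). For Dusp8 it was 0.44 lower, with an interval from -1.48 to 0.59 (edgeR adjusted p = 0.645). Both intervals include 0, and both reach past a response 2-fold lower in DLM8. Spry2 and Dusp10 entered this comparison only without the filter, where Spry2 was 3.56 lower in DLM8 (SE 0.95, edgeR adjusted p = 0.0176) and Dusp10 was not called (adjusted p = 0.304).

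**Figure D4:**
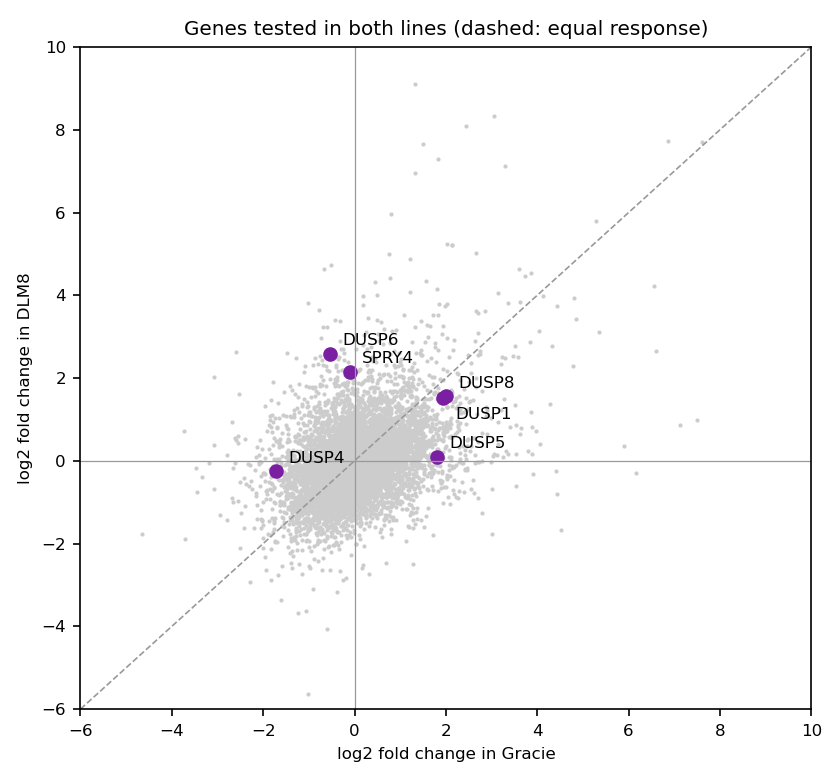
Log2 fold change in DLM8 (vertical) against Gracie (horizontal) for the 7566 genes tested in both lines (grey) with the 6 members in purple; the dashed line marks an equal response. DUSP1 and DUSP8 lie near it in the upper right, DUSP6 and SPRY4 far above it and DUSP5 below it.

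Of all members Dusp1 had the smallest p in DLM8. Over the 12 libraries, with log2 CPM centred within each line, the genes with the pattern most like it among 4020 compared were NFRKB (Pearson r = 0.970), PCNX1 (0.969), TNFAIP3 (0.964), ATXN2 (0.962) and STARD9 (0.961). These points share libraries, depth and the OMX contrast, and 1.44% of the genes compared had r over 0.9. TNFAIP3, the NF-kB feedback gene of a ubiquitin-editing enzyme, had larger fold changes than Dusp1 (log2 fold change 3.14 in DLM8 and 4.05 in Gracie), and STARD9 smaller ones (0.50 and 0.86, the latter not called).

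The rest of the pathway was followed with 5 lists of genes, and the genes named are up to 3 called ones with the smallest p in each direction. Some reached the filter's level in all 3 OMX libraries but in fewer than 3 untreated ones, and so passed only through OMX libraries. In DLM8 these were 5 other feedback genes, 1 core gene, 1 JNK or p38 gene, 2 ligands or receptors and 3 output genes. In Gracie they were 0, 2, 1, 1 and 3, so counts of higher genes are partly set by the filter. Lrig1, Mapk11, Pdgfb, Egr1 and Egr2, named below for DLM8, are among them and had few untreated counts. Of 15 tested genes for other feedback inhibitors in DLM8, 3 were higher and 2 lower (20% and 13.3%, median log2 fold change -0.08), close to the 19.4% and 15.9% of all genes. Lrig1, an inhibitor of ERBB receptors, rose by 2.61 (SE 0.46), Errfi1, an inhibitor of the EGF receptor, by 1.74 (SE 0.36) and Dusp16, another JNK phosphatase gene, by 1.50 (SE 0.28). The row on the strand opposite Dusp16, Gm36328, held 7.45 times its counts and stood at 1.63. That opposite Lrig1, Slc25a26, held 0.392 times the Lrig1 counts and stood at 2.56. Dusp14 fell by 2.52 (SE 0.88) and Pebp1, the gene of an inhibitor of the kinase cascade, by 0.52 (SE 0.17). Dusp14 had few counts, 14, 10 and 10 untreated and 0, 4 and 2 with OMX. It passed the filter only through its untreated libraries, so the count of lower genes is partly set by the filter too. In Gracie 3 of 14 were higher and 2 lower (21.4% and 14.3%, against 12.5% and 8.06% of all genes, median 0.24). ERRFI1 rose by 1.34 (SE 0.23), LRIG1 by 1.35 (SE 0.25) and RASAL2, a RAS GTPase-activating protein gene, by 1.10 (SE 0.31), while PEBP1 fell by 0.79 (SE 0.21) and NF1, the neurofibromin gene, by 0.71 (SE 0.22).

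The RAS to ERK core had 7 of 22 genes lower and 2 higher in DLM8 (31.8% and 9.09%, against 15.9% and 19.4% of all genes, median -0.25). The MEK gene Map2k1 fell by 1.27 (SE 0.26), Nras by 1.12 (SE 0.28) and Ptpn11, a phosphatase that promotes RAS activation, by 0.79 (SE 0.19). The scaffold gene Ksr1 rose by 1.90 (SE 0.19), and the row of its opposite-strand neighbour Gm11201 held 3.87 times its counts and stood at 2.11. In Gracie 3 of 24 core genes were higher and 0 lower by edgeR's quasi-likelihood test (12.5% and 0%, against 12.5% and 8.06% of all genes, median -0.16). The higher ones were the adaptor gene GAB2 (1.70, SE 0.36), BRAF (1.59, SE 0.34) and RRAS2 (1.65, SE 0.41).

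Among the kinases that Dusp8 and Dusp10 act on and their partners, 3 of 11 genes were higher in DLM8 and 0 lower (27.3% and 0%, against 19.4% and 15.9% of all genes, median -0.31). They were the p38 kinase genes Mapk11 (3.07, SE 0.56) and Mapk12 (1.02, SE 0.33) and Mapkapk3, a kinase downstream of p38 (1.19, SE 0.24). In Gracie 1 of 7 was higher, MAP2K3, the gene of a p38 activator (1.91, SE 0.22), and 0 were lower (14.3% and 0%, against 12.5% and 8.06% of all genes, median 0.34). Of 16 ligand and receptor genes in DLM8, 3 were higher (Egfr by 1.75, SE 0.32, Pdgfb by 3.27, SE 0.73, and Fgfr3 by 0.88, SE 0.27) and Pdgfa was lower, by 0.47 (SE 0.16). Those shares, 18.8% and 6.25%, compare with 19.4% and 15.9% of all genes, and the median was 0.34. The rows on the strand opposite Fgfr3 (G630022F23Rik, 5.36 times its counts) and Pdgfa (6330403L08Rik, 3.14 times) stood at 0.96 and -1.66. In Gracie 2 of 12 were higher, the EGF family ligand genes EREG (2.78, SE 0.36) and NRG1 (0.64, SE 0.21), and 4 lower, led by PDGFA (-1.48, SE 0.21), FGF7 (-1.77, SE 0.46) and FGFR1 (-0.73, SE 0.20). These were 16.7% and 33.3%, against 12.5% and 8.06% of all genes, and the median was -0.51.

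Genes listed as ERK output had 11 of 23 higher, 0 lower and 12 not called in DLM8. These were 47.8% higher and 0% lower, against 19.4% and 15.9% of all genes. The median was 0.62, also with Egr2, at 0 counts untreated, set to its lower bound. Kinase activity was not measured, so the list name is not a result about ERK. Egr1, at 0, 4 and 6 counts untreated, rose by 8.34 (SE 0.42), Lif by 4.36 (SE 0.23) and Ier2 by 2.89 (SE 0.21). The size of the Egr1 rise rests on those few untreated counts. In Gracie 11 of 22 were higher and 2 lower (50% and 9.09%, against 12.5% and 8.06% of all genes, median 1.22). IER2 rose by 2.63 (SE 0.27), EPHA2, a receptor tyrosine kinase gene, by 1.64 (SE 0.20) and FOSL1, an AP-1 gene, by 1.50 (SE 0.19), while CCND1, the cyclin D1 gene, fell by 1.77 (SE 0.25) and PLAUR, the urokinase receptor gene, by 1.37 (SE 0.23). All values of these lists are log2 fold changes by edgeR, called as above. Where edgeR's quasi-likelihood test called 0 genes lower, 1 JNK and p38 gene and 1 output gene in DLM8, and 1 core gene and 0 JNK and p38 genes in Gracie, were lower at an unadjusted p under 0.05, and DESeq2 called 0 in each. Of the 20 DLM8 genes that the naming rule chose, 10 overlap an annotated gene on the opposite strand and in 5 of these pairs that gene's row held more counts.

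**Figure D5:**
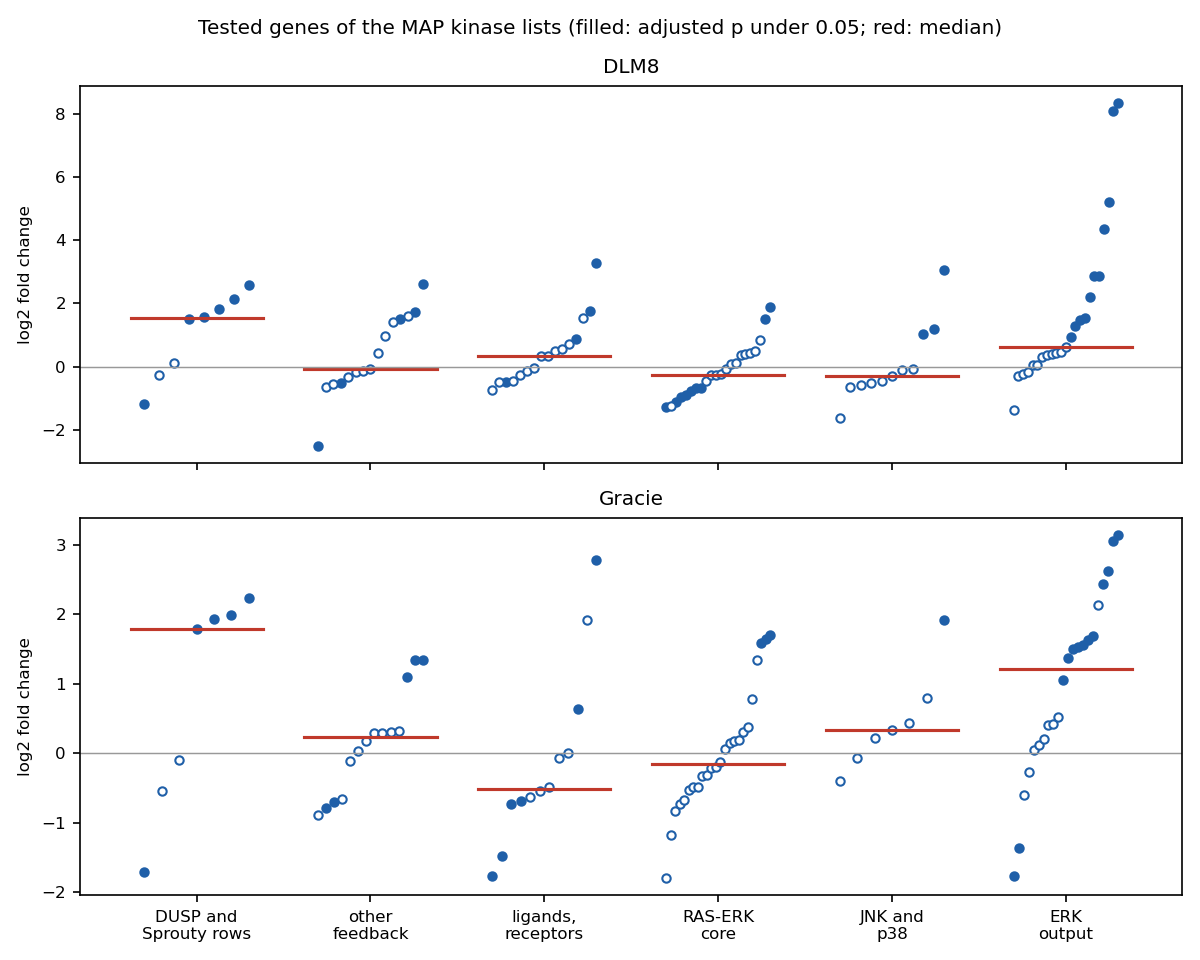
Log2 fold change (vertical, with a different range in each panel) of every tested gene of the DUSP and Sprouty set and of the 5 other lists, in DLM8 (top) and Gracie (bottom); filled points were called and red lines are medians. The medians of the DUSP and Sprouty rows are 1.53 in DLM8 (0.10 without Dusp6, Dusp10 and Spry4) and 1.80 in Gracie.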

How the data were processed

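The authors deposited 1 table of raw counts for each species, with genes in rows and libraries in columns. Their tools, per the submitters' processing notes, were STAR, featureCounts and Subread, and the builds named there are GRCm39, mm39 and CanFam3.1. No source used here gives versions, strand setting or how read pairs were treated. Of nonzero counts, 67.7% to 73.7% were even, so counts may not be independent molecules and fits were repeated with halved counts. The limits given for counts of 0 cover counting error only. The lines were fitted separately with edgeR 4.0.16 under R 4.3.3 (filterByExpr, TMM, quasi-likelihood F-test, Benjamini-Hochberg over all genes tested). Standard errors (SE) were derived from the F statistic and the fold change, and intervals are normal 95% intervals. The difference between lines was the interaction over shared symbols, with scaling within each line. Alternatives were other scalings, no filter, DESeq2 1.42.0, a replicate block, halved counts and leaving out each library. The fits were tested on simulated data. The members and lists were chosen with earlier results of these data known. Named were all members, up to 3 called genes with the smallest p per list, line and direction, the 5 genes most like the member with the smallest p in DLM8 (log2 CPM with a prior count of 2, mean of at least 3 in both lines), and opposite-strand neighbours within 500 bases. The values of 1 gene that this rule chose are not reported here. Neighbours and exon lengths come from GENCODE M21 (51487 of 78317 identifiers matched), whose build differs from that of the counts, so genes annotated later were not seen.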

Additional observations from a re-analysis of the deposited data

Results flagged for a closer look

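The response of Dusp6 differed between the lines: its log2 fold change was 3.11 higher in DLM8 than in Gracie (SE 0.43, adjusted p = 0.00012 by edgeR's test of the interaction), with all 3 OMX libraries above the untreated ones in DLM8 and all 3 below in Gracie. It kept its call in all 19 alternatives, at 2.82 to 3.38. The untreated rows stood at 4 to 6 counts in DLM8 and 238 to 340 in Gracie. Because no untreated DLM8 library reached the filter's level, Dusp6 entered the comparison only through its OMX libraries in that line.

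The response of Spry4 was 2.26 higher in DLM8 than in Gracie (SE 0.68, adjusted p = 0.0335 by edgeR), with OMX above untreated in 3 of 3 DLM8 libraries and overlapping groups in Gracie. Its adjusted p ranged from 0.0147 to 0.106 over 18 alternatives, and its untreated DLM8 row held 2 to 8 counts. Like Dusp6, it passed the filter in DLM8 only through OMX libraries.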

How the results depend on the processing

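In DLM8, Dusp1, Dusp6, Dusp7 and Dusp8 kept their calls and directions in all 13 alternatives, and so did DUSP1, DUSP4, DUSP5, DUSP8 and SPRY2 in Gracie. The count of higher members ranged from 3 (without OMX replicate 1 or 2) to 5 in DLM8 and that of lower members stayed at 1 when each library was left out, and in Gracie they stayed at 4 and 1. Without Dusp6, Dusp10 and Spry4, an alternative chosen after seeing the data, 2 were higher and 1 lower in DLM8. The number of members that differed between the lines ranged from 1 (without DLM8 OMX replicate 2, Gracie untreated replicate 1, or Gracie OMX replicate 1 or 3) to 3. With the replicate block it was 4 in place of 2, Dusp4 (adjusted p = 0.0445) and Dusp5 (0.0128) being added, and the block left the members' counts in each line as they were. Same-numbered libraries deviated together with r of 0.181, 0.0308 and 0.0982 in DLM8 and 0.113, -0.0204 and 0.164 in Gracie. Libraries of different number gave -0.144 to 0.0558 in DLM8 and -0.160 to 0.0363 in Gracie. With the block, 3629 genes were higher and 3217 lower in DLM8 (3311 and 2726 without), and 1427 and 1010 in Gracie (1308 and 840 without). Whether the numbers pair the libraries was not settled, and the main fits used no block. Dusp5 was also called different between lines with DESeq2 (adjusted p = 0.0471), with halved counts (0.045), without DLM8 untreated replicate 2 (0.0465) and without DLM8 OMX replicate 1 (0.0154), and Dusp4 without DLM8 untreated replicate 3 (0.024). Reversed signs were seen in uncalled members: Dusp5 in DLM8 without untreated replicate 2 (-0.17) or 3 (-0.01) or OMX replicate 1 (-0.45), its range being -0.45 to 0.55, Dusp4 in DLM8 without untreated replicate 3 (0.76) or OMX replicate 1 (0.02), in a range of -0.69 to 0.76, and SPRY4 in Gracie without untreated replicate 1 (0.39, in a range of -0.41 to 0.39) and with the replicate block (0.00169). The cause was not tested. Over all genes, leaving out each library gave 2544 to 3682 higher and 1998 to 3206 lower calls in DLM8, and 827 to 1462 and 395 to 925 in Gracie, where the lower count was 495 without untreated replicate 2, 395 without OMX replicate 2 and 553 without OMX replicate 3. Library size alone moved the median of all genes by 0.14 in DLM8 (3977 higher and 1991 lower, against 3311 and 2726) and by -0.13 in Gracie (1084 and 1204, against 1308 and 840), and every tested member kept its direction. Rows under about 10 counts per library limit Dusp2, Spry2, Spry4 and untreated Dusp6 in DLM8, and DUSP2 and DUSP10 in Gracie.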
